A study of Mus musculus with 9 samples.

Results

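Interleukin-4 and interleukin-13, the alpha chains of their receptors and 3 genes that these cytokines induce were examined in eosinophils sorted from mouse quadriceps muscle. The 7 genes were taken by name from a table of 54146 genes: the cytokines Il4 and Il13, the receptor chains Il4ra and Il13ra1, and the effectors Arg1, Retnla and Chil3. The sort took live leukocytes that carried Siglec-F and lacked CD11c, Gr1 and MHC class II. There were 9 RNA-seq libraries in 3 groups of 3, which the study's design calls biological replicates. The mdx_IL5Tg group came from mdx mice, which lack dystrophin and have muscle degeneration, that also carried an IL5 transgene. The mdx group came from mdx mice without the transgene, and the IL5Tg group from mice with the transgene alone. All animals were adult. The strain label reads mdx for all 9 libraries, IL5Tg included, so the groups rest on the sample titles. The promoter that drives the transgene is not given in the sources used here. Library totals ran from 43297851 to 58368283 counts in mdx_IL5Tg, from 29200231 to 41627444 in mdx and from 26752780 to 30824793 in IL5Tg. All 10 eosinophil marker genes examined were detected in all 9 libraries. Levels are given as CPM, counts scaled to a common library size after TMM normalisation. The summed level of these markers was 2989 to 3294 CPM in mdx_IL5Tg, 1146 to 2250 CPM in mdx and 4694 to 14425 CPM in IL5Tg. Granule genes carried the IL5Tg sum, with a mean of 3766 CPM for Prg2 there, while Siglecf, the gene of the sort marker, averaged 520.4 CPM in mdx_IL5Tg, 157 CPM in mdx and 353 CPM in IL5Tg, and Ccr3 averaged 1372 CPM in mdx_IL5Tg, 1017 CPM in mdx and 968 CPM in IL5Tg.

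Interleukin-4 and interleukin-13 are type 2 cytokines encoded by neighbouring genes, and eosinophils are a known source of interleukin-4. Interleukin-4 binds the interleukin-4 receptor alpha chain (Il4ra), which pairs either with the common gamma chain (Il2rg) or with Il13ra1, and interleukin-13 signals through the pair of Il4ra and Il13ra1. Both receptors act through Janus kinases and the transcription factor STAT6, which in mouse macrophages induces Arg1 (arginase 1), Retnla (resistin-like alpha, also called FIZZ1) and Chil3 (chitinase-like 3, also called Ym1).

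Before the levels, the DNA just upstream of the members is shown where it held a sequence of the kind bound by STAT6 or by GATA factors, since Gata2 is given further on. RefSeq windows of 250 bases before the start site (GRCm38.p6) were found for 6 of the 7 members, all but Arg1. The windows below are written 5′ to 3′ on the strand of the gene, and capitals mark the matches. They were Il4 at chr11:53618666-53618915 (minus strand), Retnla at chr16:48842359-48842608 (plus strand), Il13 at chr11:53634703-53634952 (minus strand) and Chil3 at chr3:106167565-106167814 (minus strand).
Il4: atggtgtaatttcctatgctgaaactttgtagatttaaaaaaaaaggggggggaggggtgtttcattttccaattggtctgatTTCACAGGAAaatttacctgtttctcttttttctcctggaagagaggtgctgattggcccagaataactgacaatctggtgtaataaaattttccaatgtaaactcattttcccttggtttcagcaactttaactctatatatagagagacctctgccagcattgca
Retnla: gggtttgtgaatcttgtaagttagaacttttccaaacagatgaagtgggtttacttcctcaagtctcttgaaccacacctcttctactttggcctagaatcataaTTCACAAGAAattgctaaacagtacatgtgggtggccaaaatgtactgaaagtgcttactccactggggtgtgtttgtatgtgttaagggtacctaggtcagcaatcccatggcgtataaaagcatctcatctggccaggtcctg
Il13: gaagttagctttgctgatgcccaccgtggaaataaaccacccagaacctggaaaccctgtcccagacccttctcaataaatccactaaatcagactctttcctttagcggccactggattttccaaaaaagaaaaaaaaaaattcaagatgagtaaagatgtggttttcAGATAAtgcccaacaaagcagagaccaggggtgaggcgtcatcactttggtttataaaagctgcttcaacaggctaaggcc
Chil3: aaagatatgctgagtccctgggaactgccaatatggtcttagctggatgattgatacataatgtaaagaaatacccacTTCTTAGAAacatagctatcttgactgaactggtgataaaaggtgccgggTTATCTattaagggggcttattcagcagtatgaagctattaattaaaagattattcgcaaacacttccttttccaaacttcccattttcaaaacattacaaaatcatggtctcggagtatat
The Il4 window held TTCACAGGAA from position -167 to -158, counted from -1 for the base before the start site. The Retnla window held TTCACAAGAA from -145 to -136. Both match TTC and GAA with 4 bases between them, the spacing that STAT6 prefers, which is present on either strand in 5.85% of the 32841 mouse windows searched. The Chil3 window held TTCTTAGAA from -172 to -164, a match to TTC and GAA with 3 bases between them, a spacing that other STAT factors bind and that 7.02% of windows hold. The GATA sequence AGATAA, searched on both strands and present in 9.99% of windows, lay from -81 to -76 of Il13 and, on the opposite strand, from -122 to -117 of Chil3. No match to these 3 sequences was present in the windows of Il4ra and Il13ra1 or in a second Il4 window. A match describes these letters only, and no binding was measured here.

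All 7 members passed the filter on low counts, Arg1 only through the groups with the mdx background. By edgeR's quasi-likelihood test at an adjusted p under 0.05, 3 of the 7 were higher in mdx_IL5Tg than in IL5Tg (Arg1, Il4ra and Retnla). Such a call was made for 7.22% of the 15886 genes tested, 4.35% as higher. Arg1 is set aside when calls against IL5Tg are read beside these shares, which leaves Il4ra and Retnla here. Against mdx, 4 members were higher in mdx_IL5Tg (Il4, Il13, Il4ra and Retnla), where 21.6% of all genes were called and 10.1% as higher. Between the single genotypes 5 members differed, Arg1 being higher in mdx than in IL5Tg and Il4, Il13, Il4ra and Retnla being lower. Of all genes, 20.8% were called there, 11.8% as higher and 8.96% as lower. With Arg1 set aside, the 4 lower members remain. The median log2 change of the 7 members was 0.49 for mdx_IL5Tg against IL5Tg, 1.16 for mdx_IL5Tg against mdx and -0.51 for mdx against IL5Tg, beside -0.050, -0.13 and 0.013 over all genes tested. These medians include Arg1, which had the highest log2 change of the members in both comparisons against IL5Tg (3.40 and 3.71). Both medians against IL5Tg would be lower without it. Each pair of the comparisons shares the libraries of 1 group. In bulk samples such as these, fewer cells of a type and less RNA per cell cannot be told apart.

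**Figure D1:**
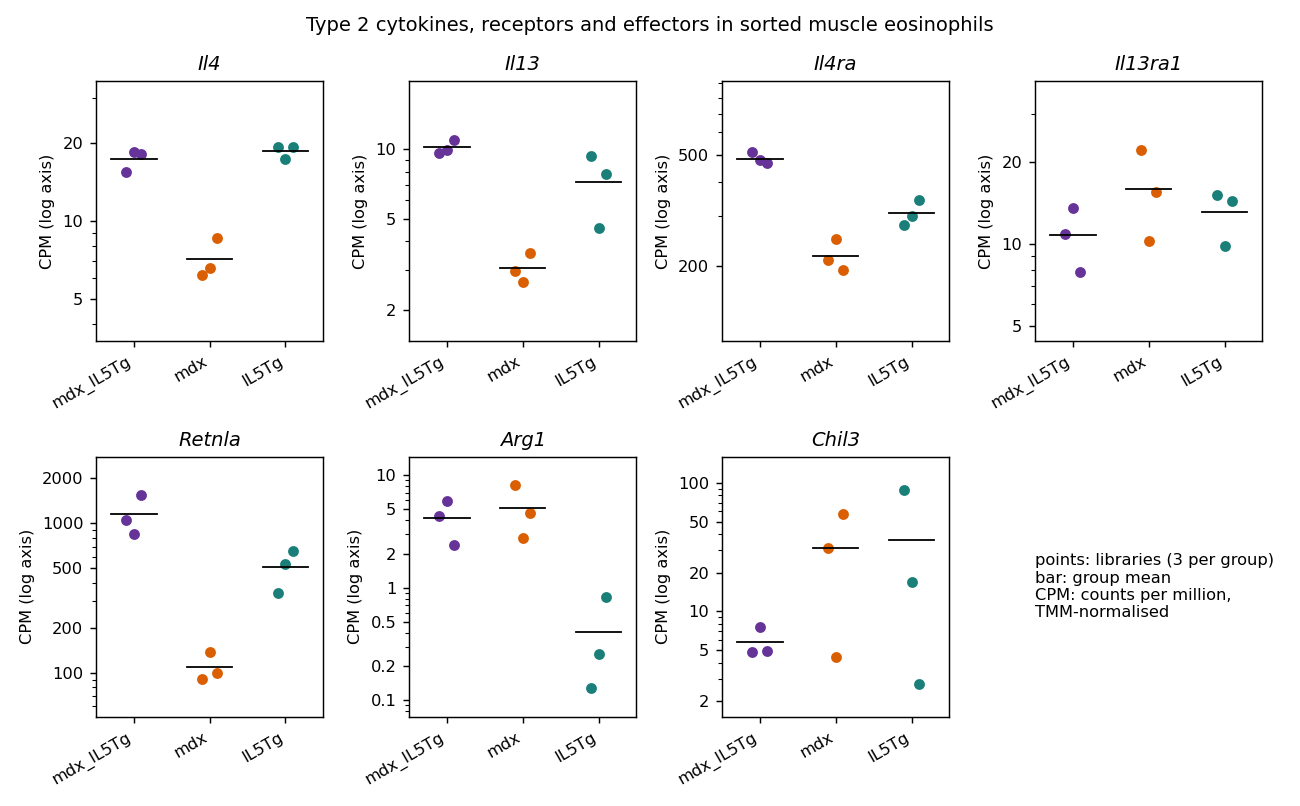
Level of each member in each library, in CPM on log axes with a panel per gene and groups from left to right in the order mdx_IL5Tg, mdx, IL5Tg; points are libraries and bars are group means. Il4, Il13, Il4ra and Retnla were lowest in the 3 mdx libraries, Arg1 was lowest in the 3 IL5Tg libraries, and Chil3 spread from 2.72 to 88.7 CPM within IL5Tg. Of all genes, 35.9% to 42.0% had no overlap in a given pair of groups, and the share apart from both other groups was not counted.

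The cytokine genes were lowest in eosinophils of mdx mice without the transgene. Il4 (ENSMUSG00000000869.12, chr11:53602982-53618669, minus strand) was at 15.4, 18.5 and 18.1 CPM in mdx_IL5Tg libraries S1, S2 and S3, at 6.18, 6.59 and 8.61 CPM in mdx libraries S4, S5 and S6, and at 19.3, 17.4 and 19.2 CPM in IL5Tg libraries S7, S8 and S9. Every mdx library was below every library of the other groups, and the ranges of mdx_IL5Tg and IL5Tg overlapped. Of all genes, 42.0% had no overlap in mdx_IL5Tg against mdx and 41.9% in mdx against IL5Tg. Il4 was thus 1.28 log2 units higher in mdx_IL5Tg than in mdx (SE 0.18, edgeR adjusted p = 0.0011), with means of 17.3 ± 1.67 and 7.13 ± 1.30 CPM (SD, n = 3 each). In mdx it was lower than in IL5Tg, with a log2 value of -1.39 (SE of 0.18, adjusted p = 0.00059 by edgeR) and an IL5Tg mean of 18.6 ± 1.08 CPM. Between mdx_IL5Tg and IL5Tg the log2 change was -0.10 with a 95% interval of -0.49 to 0.28 (edgeR adjusted p = 0.74), and without S1 it was 0.022.

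Il13 (ENSMUSG00000020383.1, chr11:53631324-53634702, minus strand) lies 12654 bp from Il4. Its levels were 9.62, 9.94 and 11.0 CPM in mdx_IL5Tg, 2.97, 2.64 and 3.54 CPM in mdx, and 9.31, 4.54 and 7.83 CPM in IL5Tg, in the order of library numbers. The 3 groups did not overlap in any pair (35.9% of all genes had no overlap in mdx_IL5Tg against IL5Tg, 42.0% in mdx_IL5Tg against mdx and 41.9% in mdx against IL5Tg), with mdx lowest and mdx_IL5Tg highest, and IL5Tg S8 was the lowest library outside mdx. Il13 was 1.73 log2 units higher in mdx_IL5Tg than in mdx (SE 0.27, edgeR adjusted p = 0.0019). The log2 difference of mdx from IL5Tg was -1.24 (SE of 0.27, adjusted p = 0.0095 by edgeR), which became -0.92 (adjusted p = 0.054) without S7 and S5 together. The gap between mdx_IL5Tg and IL5Tg, a log2 change of 0.49 with a 95% interval of -0.08 to 1.07, did not pass the test (edgeR adjusted p = 0.25), although the groups were separate. Per kilobase of exon, Il4 was above Il13 in every library, by a ratio of 1.57, 1.82 and 1.62 in mdx_IL5Tg, 2.04, 2.45 and 2.39 in mdx, and 2.04, 3.76 and 2.41 in IL5Tg. The ratio was lower in each mdx_IL5Tg library than in each library of the other groups.

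Other genes of the cytokine locus and of its usual producers were examined beside them. Il5, which lies 86091 bp from Il13, averaged 695 ± 30.3 CPM in mdx_IL5Tg, 0.334 ± 0.0682 CPM in mdx and 434 ± 105 CPM in IL5Tg (SD, n = 3 each), and reads of the transgene and of the mouse gene are not separated in this count. Gata2, a transcription factor of eosinophils, mast cells and basophils, was at 66.2, 55.9 and 63.7 CPM in mdx_IL5Tg, 18.7, 18.2 and 18.2 CPM in mdx, and 86.1, 53.8 and 52.2 CPM in IL5Tg. Il1rl1, the receptor for interleukin-33, was at 1477, 1504 and 1739.7 CPM in mdx_IL5Tg, 402, 359.7 and 418 CPM in mdx, and 1041, 1434 and 1608 CPM in IL5Tg. Both genes were lower in all 3 mdx libraries than in all other libraries, as Il4 and Il13 were. Groups were likewise apart for 42.0% of all genes in mdx_IL5Tg against mdx and for 41.9% in mdx against IL5Tg. Gata2 was 1.75 and Il1rl1 2.00 log2 units higher in mdx_IL5Tg than in mdx (edgeR adjusted p = 0.00021 and 4.6e-05), and neither was called between mdx_IL5Tg and IL5Tg (adjusted p = 0.9 and 0.45). Of the 10 eosinophil markers, 7 were also lower in mdx than in IL5Tg, among them Siglecf and Prg2, and 2 were higher in mdx_IL5Tg than in mdx, Siglecf and Cebpe. The part of this in the levels of Il4 and Il13 was not tested.

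Of a list of 21 genes of type 2 cytokines, their inducers and their producers, 17 were tested. In mdx_IL5Tg against mdx, 5 were higher, among them Nfatc2 (a calcium-responsive transcription factor, 24.2 ± 1.56 and 9.60 ± 2.75 CPM) beside Il5, Il1rl1 and Gata2, and 5 were lower, among them Il7r (2.41 ± 0.750 and 11.5 ± 6.64 CPM) and Il33 (5.77 ± 2.88 and 14.2 ± 4.21 CPM; SD, n = 3 each). The median log2 change of the tested genes was -0.72 in that comparison. In mdx against IL5Tg, 6 were higher and 4 lower, Il5 among the lower. In mdx_IL5Tg against IL5Tg 1 was higher (Il5) and 1 lower (Il17rb, with means of 0.0656 and 0.572 CPM). Il5 is the gene of the transgene, so its calls in the comparisons that involve mdx followed from the design. It lends nothing to those counts, and the median of -0.72 includes it. Il17rb passed the filter on low counts only through mdx and IL5Tg, the groups in which it was higher, so its calls are a description. The 10 calls in mdx_IL5Tg against mdx were 6 without S1, and the 10 in mdx against IL5Tg were 6 without S8. The 2 in mdx_IL5Tg against IL5Tg were 0 by edgeR without S1, S8 or S9 (5, 6 and 5 at an unadjusted p under 0.05), 1 without S2 or S7 and 4 without S5, and DESeq2 on all libraries called 4. The genes called lower in mdx_IL5Tg than in mdx thus included Il7r, which type 2 innate lymphoid cells and T cells carry. Markers of other cells that the gate on Siglec-F should leave out were examined too. The summed level of 12 T cell and type 2 innate lymphoid markers was 9.03 to 16.5 CPM in mdx_IL5Tg, 26.5 to 46.6 CPM in mdx and 13.7 to 14.3 CPM in IL5Tg. Il7r, Rora and Thy1 carried the mdx sum. Cd3d, a chain of the T cell receptor complex, went the other way, with means of 1.40 CPM in mdx_IL5Tg, 0.183 CPM in mdx and 2.49 CPM in IL5Tg, and was higher in mdx_IL5Tg than in mdx (log2 change 2.90, edgeR adjusted p = 0.00044). Cd3d passed the filter only through the groups with the transgene, in which it was higher, so that call is a description. The defining marker Cd3e was at 0 in S1, S2, S5 and S9. It summed to 2 counts in mdx_IL5Tg, 14 in mdx and 8 in IL5Tg, where Cd3d summed to 182, 22 and 222. The 11 mast cell and basophil markers summed to 20.6 to 23.8 CPM in mdx_IL5Tg, 30.1 to 51.5 CPM in mdx and 15.7 to 32.7 CPM in IL5Tg. Kit made up most of that sum, with means of 20.0 CPM in mdx_IL5Tg, 28.2 CPM in mdx and 16.9 CPM in IL5Tg. It was not called in mdx_IL5Tg against mdx (edgeR adjusted p = 0.088). In that comparison 3 of the 9 tested were lower, Cma1 (means of 0.378 and 3.31 CPM), Tpsb2 and Mcpt4, and none was higher. In mdx against IL5Tg 4 were higher (Cma1, Mcpt4, Kit and Tpsb2) and none lower. Ms4a2, a chain of the IgE receptor, averaged 0.0666 CPM in mdx_IL5Tg, 0.176 CPM in mdx and 1.05 CPM in IL5Tg, and was lower in mdx_IL5Tg than in IL5Tg (edgeR adjusted p = 0.048). Ms4a2 passed the filter on low counts only through IL5Tg, and Mcpt4 and Tpsb2 only through mdx. Each was highest in that group, so their calls are a description. Mcpt8 and Prss34, also on the mast cell and basophil list, had their highest means in IL5Tg and were not called in any comparison. Mcpt8 averaged 0.169 CPM in mdx_IL5Tg, 0.290 CPM in mdx and 0.788 CPM in IL5Tg. Prss34 averaged 0.347, 0.670 and 1.16 CPM in the same order. Both sums were above the mdx_IL5Tg range in every mdx library, and the part of such cells in the cytokine levels was not tested.

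Il4ra (ENSMUSG00000030748.9, chr7:125552120-125579474, plus strand), the chain shared by both receptors, was highest in mdx_IL5Tg. Its levels were 509.6, 476 and 466 CPM in mdx_IL5Tg, 209, 249 and 193 CPM in mdx, and 279, 301 and 345 CPM in IL5Tg. The 3 groups did not overlap, with IL5Tg in the middle. In a given pair of groups, 35.9% to 42.0% of all genes had no overlap. Il4ra was 1.16 log2 units higher in mdx_IL5Tg than in mdx (SE 0.14, edgeR adjusted p = 0.00045) and 0.65 higher than in IL5Tg (SE 0.14, edgeR adjusted p = 0.028), and its log2 difference of mdx from IL5Tg was -0.51 (SE of 0.14, adjusted p = 0.027). The call against IL5Tg was lost without S1 (0.66, adjusted p = 0.13), S2 (0.71, 0.074), S7 (0.63, 0.072) or S8 (0.69, 0.066). The call of mdx against IL5Tg was lost without S4 (-0.50, adjusted p = 0.078), S6 (-0.47, 0.083), S8 (-0.56, 0.055) or S9 (-0.46, 0.095), and with only the compared groups in the fit (adjusted p = 0.058). An antisense gene model, Gm44876, overlaps exons of Il4ra, and it was listed at 0 counts in all 9 libraries.

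Il13ra1 (ENSMUSG00000017057.9, chrX:36112110-36171259, plus strand), the chain that interleukin-13 binds first, was at 10.9, 13.6 and 7.88 CPM in mdx_IL5Tg, 22.0, 10.2 and 15.5 CPM in mdx, and 15.1, 9.80 and 14.4 CPM in IL5Tg. The 3 groups overlapped in every pair. Il13ra1 did not pass the test in mdx_IL5Tg against IL5Tg (log2 change -0.28, 95% interval -0.94 to 0.38, edgeR adjusted p = 0.58) or in mdx_IL5Tg against mdx (-0.56, -1.22 to 0.09, adjusted p = 0.2). In mdx against IL5Tg the log2 change was 0.28 (95% interval -0.37 to 0.94, edgeR adjusted p = 0.52), and it was -0.050 without S4. limma voom with quality weights called it lower in mdx_IL5Tg than in mdx (log2 change -0.65, adjusted p = 0.029).

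Per kilobase of exon the group means of the receptor chains stood in the order Il4ra, Il2rg, Il13ra1, from highest to lowest, with Il4ra and Il2rg close in mdx. Il4ra averaged 80.6 CPM per kilobase in mdx_IL5Tg, 36.1 in mdx and 51.4 in IL5Tg, the common gamma chain Il2rg averaged 29.3, 31.9 and 24.2, and Il13ra1 averaged 2.90, 4.29 and 3.53. Il13ra1 was the lowest of the 3 in every library. Relative to Il2rg, Il4ra stood at 2.85, 2.64 and 2.76 in mdx_IL5Tg, 1.09, 1.57 and 0.854 in mdx, and 2.16, 2.06 and 2.14 in IL5Tg. It was above Il2rg in all libraries but mdx S6. Il2rg itself was not called in any comparison (edgeR adjusted p = 0.25 for mdx_IL5Tg against IL5Tg, 0.58 for mdx_IL5Tg against mdx and 0.076 for mdx against IL5Tg). The decoy receptor Il13ra2 was not tested, with 5 counts summed over mdx_IL5Tg, 6 over mdx and 3 over IL5Tg.

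**Figure D2:**
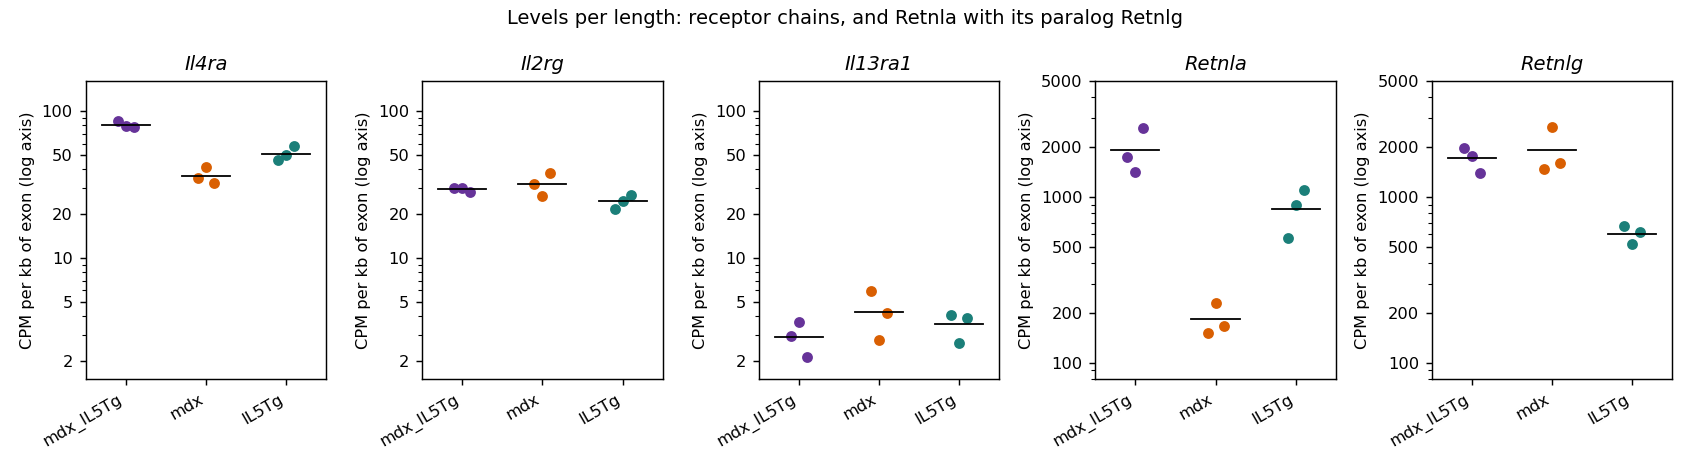
Levels of the receptor chains Il4ra, Il2rg and Il13ra1 and of Retnla and its paralog Retnlg in CPM per kilobase of exon on log axes, with a point per library, a bar at each group mean and groups in the order mdx_IL5Tg, mdx, IL5Tg. Il4ra, with means of 80.6, 36.1 and 51.4, stands above Il13ra1 at 2.90, 4.29 and 3.53 in every group, and in mdx Retnla has a mean of 183 where Retnlg has 1913.

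Downstream of the receptors, 14 of 15 listed signalling genes were tested. In mdx_IL5Tg against IL5Tg, 2 were higher and none lower by edgeR: Stat6 at 387, 369 and 358 CPM in mdx_IL5Tg and 225, 278 and 277 CPM in IL5Tg (log2 change 0.51, SE 0.13, edgeR adjusted p = 0.038), and the adaptor Grb2 at 266 ± 25.0 and 187 ± 8.10 CPM (SD, n = 3 each). The Stat6 libraries of mdx at 346, 383 and 371 CPM overlapped mdx_IL5Tg and lay above all of IL5Tg (log2 change of mdx against IL5Tg 0.50, edgeR adjusted p = 0.02). In mdx_IL5Tg against mdx 3 were higher, namely Irs2 (363 ± 28.4 and 219.9 ± 27.5 CPM), Pik3r1 and Grb2, and 2 were lower, namely Irs1 (1.35 ± 0.552 and 5.57 ± 1.25 CPM) and the phosphatase gene Ptpn6. Irs1 and Irs2, both substrates of the activated interleukin-4 receptor, were thus called in opposite directions. In mdx against IL5Tg 3 were higher (Irs1, Stat6 and Jak3) and 1 lower (Pik3r1). The count of 2 in mdx_IL5Tg against IL5Tg was 0 by edgeR with library totals as the only scaling (2 at an unadjusted p under 0.05) and without S1, S2, S7, S8 or S9 (4 to 6 at an unadjusted p under 0.05), and the median log2 change was 0.22 there, 0.033 in mdx_IL5Tg against mdx and 0.33 in mdx against IL5Tg. The 5 calls in mdx_IL5Tg against mdx were 2 without S1 or S5 and 3 without S3 or S4, and the 4 in mdx against IL5Tg were 1 without S8 and 2 without S1, S4, S6 or S9.

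Retnla had the highest level per kilobase of the members and the largest log2 change between mdx_IL5Tg and mdx. It encodes a secreted cysteine-rich protein (ENSMUSG00000061100.4, chr16:48842551-48844461, plus strand), and the deposited table lists it under the symbol Retnia. It was at 1047, 849.9 and 1553 CPM in mdx_IL5Tg, 91.1, 137 and 100.3 CPM in mdx, and 339.5, 533 and 656 CPM in IL5Tg. No groups overlapped, as held for 35.9% to 42.0% of all genes in a given pair, and IL5Tg lay in the middle. Retnla was 10.5-fold higher in mdx_IL5Tg than in mdx (log2 change 3.39, SE 0.30, edgeR adjusted p = 5e-05) and was lower in mdx than in IL5Tg (log2 value -2.22, SE of 0.29, adjusted p = 0.0006). Its log2 change in mdx_IL5Tg against IL5Tg was 1.17 (SE 0.28, edgeR adjusted p = 0.035). That last call was lost without S1 (1.28, adjusted p = 0.12), S7 (1.00, 0.09) or S8 (1.26, 0.078).

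Ranked by CPM per kilobase among all genes, Retnla stood at 22, 24 and 14 in the mdx_IL5Tg libraries, at 170, 132 and 148 in the mdx libraries and at 43, 27 and 24 in the IL5Tg libraries. It took 0.0908%, 0.0780% and 0.135% of all counts in mdx_IL5Tg, 0.0105%, 0.0140% and 0.0114% in mdx, and 0.0366%, 0.0532% and 0.0658% in IL5Tg. Its paralog Retnlg, which neutrophils of mice express, followed another order, at 1175, 1045 and 828 CPM in mdx_IL5Tg, 879.5, 1571 and 952 CPM in mdx, and 396, 311 and 362 CPM in IL5Tg. Retnlg was lowest in IL5Tg, without overlap, and its mdx_IL5Tg and mdx ranges overlapped (log2 change -0.16, edgeR adjusted p = 0.65). The ratio of Retnla to Retnlg per kilobase was 0.882, 0.805 and 1.86 in mdx_IL5Tg, 0.103, 0.0863 and 0.104 in mdx, and 0.848, 1.70 and 1.79 in IL5Tg. Retnla shared none of its 550 stretches of 50 bases with another gene of the annotation.

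Arg1 (ENSMUSG00000019987.9, chr10:24915221-24927484, minus strand), the arginase that hydrolyses arginine in the cytosol, was higher in both mdx groups than in IL5Tg. It was at 4.31, 5.87 and 2.40 CPM in mdx_IL5Tg (218, 233 and 92 counts), 8.12, 2.74 and 4.61 CPM in mdx (388, 82 and 191 counts), and 0.128, 0.260 and 0.820 CPM in IL5Tg (4, 8 and 22 counts). Every IL5Tg library was below every other library, and mdx_IL5Tg and mdx overlapped. Of all genes, 35.9% had no overlap in mdx_IL5Tg against IL5Tg and 41.9% in mdx against IL5Tg. Since Arg1 passed the filter through the groups in which it was higher, its calls against IL5Tg are a description. The counts of members called against IL5Tg include Arg1, and it lends nothing to them. The log2 change was 3.40 in mdx_IL5Tg against IL5Tg (SE 0.64, edgeR adjusted p = 0.018) and 3.71 for mdx over IL5Tg (SE 0.64, edgeR adjusted p = 0.0029), and it was -0.30 in mdx_IL5Tg against mdx with a 95% interval of -1.48 to 0.87 (edgeR adjusted p = 0.72). That last value was 0.088 without S3 and 0.27 without S4. The call of mdx_IL5Tg against IL5Tg was lost without S1 (3.43, adjusted p = 0.066) or S7 (3.02, 0.057), and no setting lost the call of mdx against IL5Tg. With no filter on low counts the log2 changes were 3.40 (edgeR adjusted p = 0.0054) in mdx_IL5Tg against IL5Tg and 3.73 (edgeR adjusted p = 0.0011) in mdx against IL5Tg.

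Macrophage, monocyte and muscle genes were set beside Arg1. Of 14 macrophage markers, 6 were higher in mdx_IL5Tg than in IL5Tg, and 12 were higher in mdx than in IL5Tg. In mdx_IL5Tg against mdx, 10 were lower and 1, Adgre1, was higher. Adgre1 averaged 2245 CPM in mdx_IL5Tg, 1201 CPM in mdx and 1593 CPM in IL5Tg, the same order of groups as Siglecf. The whole list summed to 2622 to 2812 CPM in mdx_IL5Tg, 1944 to 2782 CPM in mdx and 1669 to 1987 CPM in IL5Tg. Without Adgre1 and Csf1r, which took most of the list's counts in all groups, the markers summed to 163, 234 and 66.1 CPM in mdx_IL5Tg, 1179.9, 692 and 530.3 CPM in mdx, and 90.1, 36.9 and 39.7 CPM in IL5Tg. C1qb, a complement gene of tissue macrophages, was at 11.2, 15.5 and 2.38 CPM in mdx_IL5Tg, 63.2, 43.1 and 29.4 CPM in mdx, and 1.12, 0.422 and 1.53 CPM in IL5Tg. Within mdx_IL5Tg, S3 was lowest in both Arg1 and C1qb, and no marker of the 14 was at 0 except Cx3cr1 in S9. Per kilobase, Arg1 stood to C1qb at 0.188, 0.185 and 0.494 in mdx_IL5Tg, 0.0627, 0.0311 and 0.0766 in mdx, and 0.0558, 0.301 and 0.262 in IL5Tg. The mdx ratios lay below those of all 3 mdx_IL5Tg libraries. In IL5Tg the S7 ratio of 0.0558 lay within the mdx range and rested on 4 Arg1 counts. The sort gated on Siglec-F, CD11c and MHC class II, and genes of the macrophage list were still detected in all groups. These levels do not separate macrophage RNA from RNA that eosinophils themselves may hold for such genes, Adgre1 included. Of 7 monocyte markers, 5 were higher in mdx than in IL5Tg and 1, Ly6c2, was lower. F13a1, among the higher, had means of 6.41 CPM in mdx_IL5Tg, 37.5 CPM in mdx and 3.18 CPM in IL5Tg. Ly6c2 had means of 26.6, 11.5 and 129 CPM in the same order. The 10 muscle genes summed to 18.1 to 26.1 CPM in mdx_IL5Tg, 43.2 to 77.8 CPM in mdx and 7.98 to 9.70 CPM in IL5Tg, and of the 8 tested 4 were higher in mdx_IL5Tg than in IL5Tg and 8 in mdx than in IL5Tg. The part of macrophage, monocyte or muscle RNA in the Arg1 levels was not tested.

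**Figure D3:**
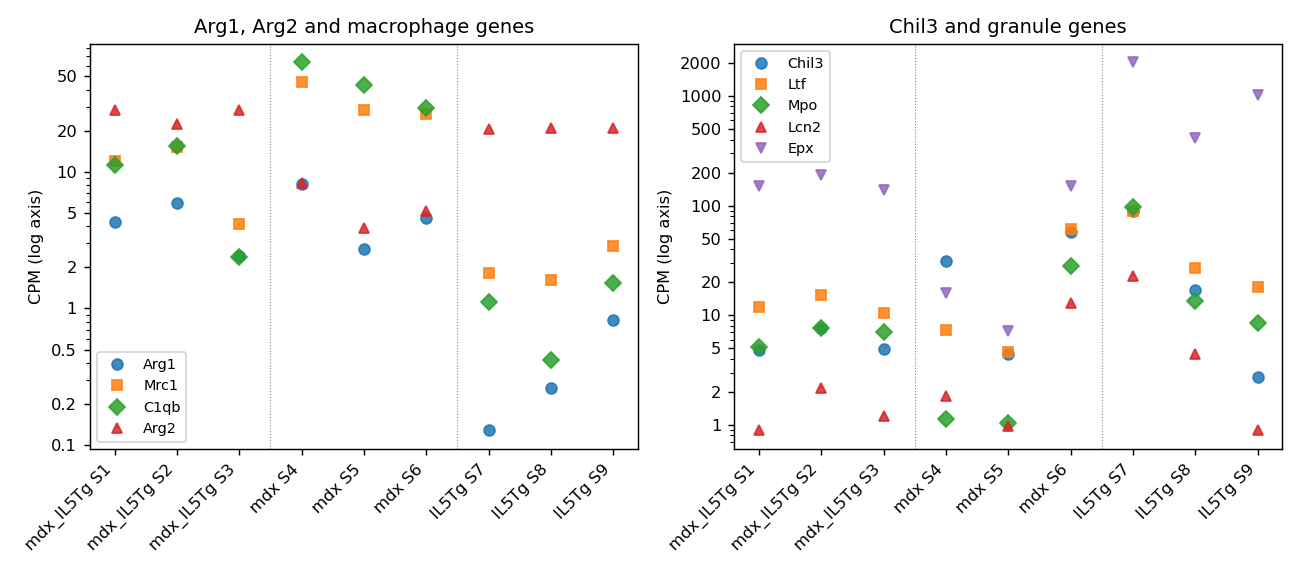
Levels in each library, in CPM on log axes, of Arg1 beside Arg2 and the macrophage genes Mrc1 and C1qb (left) and of Chil3 beside granule genes (right), with libraries in the order mdx_IL5Tg, mdx, IL5Tg. Arg1, Mrc1 and C1qb are all higher in mdx than in IL5Tg while Arg2 is lower, and Chil3 and Lcn2 are both highest in IL5Tg S7 and next highest in mdx S6.

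Arg2, the mitochondrial arginase, had a pattern unlike that of Arg1. It was at 28.5, 22.5 and 28.2 CPM in mdx_IL5Tg, 8.23, 3.85 and 5.21 CPM in mdx, and 20.7, 21.1 and 20.8 CPM in IL5Tg. All mdx libraries were below all others, where 42.0% of all genes had no overlap in mdx_IL5Tg against mdx and 41.9% in mdx against IL5Tg. Arg2 was 2.19 log2 units higher in mdx_IL5Tg than in mdx (SE 0.25, edgeR adjusted p = 0.00031) and lower in mdx than in IL5Tg (log2 value -1.85, SE of 0.25, adjusted p = 0.00074). Per kilobase it exceeded Arg1 in all 9 libraries, by a ratio of 5.98 to 18.3 in mdx_IL5Tg, 1.58 to 2.19 in mdx and 39.5 to 253 in IL5Tg. Of 10 genes of arginine use and transport besides Arg1, 9 were tested. In mdx_IL5Tg against mdx, Arg2 and Oat (ornithine aminotransferase, 116 ± 11.1 and 80.1 ± 13.7 CPM) were higher and the arginine transporter gene Slc7a2 (2.50 ± 0.393 and 5.90 ± 1.67 CPM; SD, n = 3 each) was lower. In mdx against IL5Tg, Slc7a2 and Nos2, the inducible nitric oxide synthase, were higher and Arg2 lower. Those 3 calls in mdx_IL5Tg against mdx were 1 without S1, S4 or S6, and the 3 in mdx against IL5Tg were 1 without S4, S8 or S9. In mdx_IL5Tg against IL5Tg edgeR called 0 of the 9, with 1 at an unadjusted p under 0.05, and DESeq2 and limma voom called 0.

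Chil3 (ENSMUSG00000040809.10, chr3:106147554-106167564, minus strand), a secreted lectin related to chitinases, had the widest spread of the members relative to the group mean within mdx and within IL5Tg. It was at 4.84, 7.58 and 4.96 CPM in mdx_IL5Tg, 30.9, 4.42 and 57.3 CPM in mdx, and 88.7, 16.9 and 2.72 CPM in IL5Tg. All groups overlapped, and the 3 mdx_IL5Tg libraries lay within the range of each other group. Chil3 did not pass the test in any comparison: the log2 change was -2.64 in mdx_IL5Tg against IL5Tg (SE 1.22, edgeR adjusted p = 0.21), -2.42 in mdx_IL5Tg against mdx (SE 1.21, edgeR adjusted p = 0.19) and, for mdx against IL5Tg, -0.22 (SE 1.14, edgeR adjusted p = 0.91). Without S7 and S5 together it was called lower in mdx_IL5Tg than in mdx (-2.93, adjusted p = 0.021). The value of mdx against IL5Tg changed sign, to 1.58 without S7 and 0.29 without S5.

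Neutrophil genes were set beside Chil3. Lcn2 was at 0.889, 2.17 and 1.20 CPM in mdx_IL5Tg, 1.82, 0.971 and 12.9 CPM in mdx, and 22.5, 4.41 and 0.895 CPM in IL5Tg. Ltf was at 11.9, 15.2 and 10.5 CPM in mdx_IL5Tg, 7.37, 4.62 and 61.7 CPM in mdx, and 89.9, 26.7 and 18.1 CPM in IL5Tg. These granule genes were highest in S7 and next in S6, as Chil3 was, whereas S4, the third in Chil3, was low in both. Other neutrophil genes had another order: Retnlg, given above, was lowest in IL5Tg, and the chemokine receptor Cxcr2 averaged 10.1 CPM in mdx_IL5Tg, 1.05 CPM in mdx and 3.75 CPM in IL5Tg. Ngp, from the same list, was at 337 to 861 CPM in IL5Tg, above all mdx libraries (1.10 to 132 CPM), S6 included. The eosinophil granule gene Epx was likewise highest in S7, at 2019.8 CPM, but was at 151 CPM in S6 and 16.1 CPM in S4. The 15 neutrophil markers, whose carriers the Gr1 gate should remove, summed to 1142 to 1611 CPM in mdx_IL5Tg, 1120.1 to 1835 CPM in mdx and 853 to 1858 CPM in IL5Tg. Retnlg and Mmp9 made up most of the sum in both mdx_IL5Tg and mdx, with means of 1016 and 242 CPM in mdx_IL5Tg and 1134 and 229.8 CPM in mdx. Of these markers 3 were higher in mdx_IL5Tg than in IL5Tg, 1 was higher and 2 were lower in mdx_IL5Tg than in mdx, and 3 were higher and 2 lower in mdx than in IL5Tg. Ly6g was at 0 in S4 and S5 and Elane and Fcnb in S5, and the part of such cells in the Chil3 levels was not tested. Of the Chil3 sequence, 26.89% of stretches of 50 bases also occur in Chil4 or Gm6522, both listed at 0 counts in all libraries, so a split of reads between them is uncertain.

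**Figure D4:**
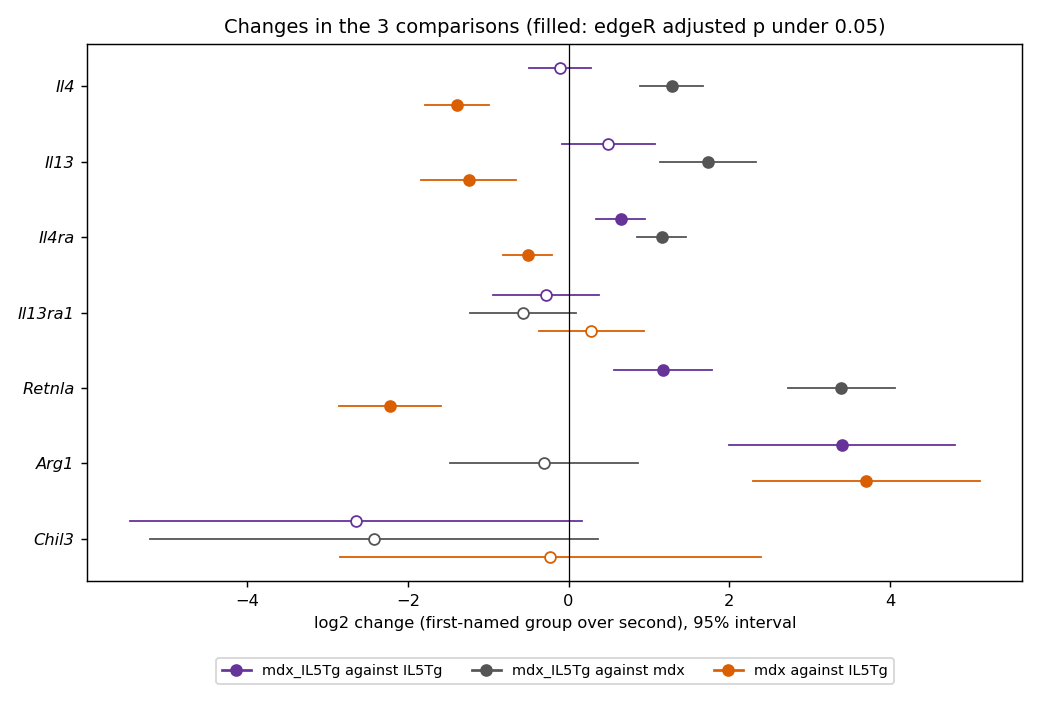
Log2 changes of the 7 members with 95% intervals in the 3 comparisons, first-named group over second, with filled points for an edgeR adjusted p under 0.05. Retnla has the largest change in mdx_IL5Tg against mdx (3.39), Arg1 is positive in both comparisons with IL5Tg (3.40 and 3.71), and the Chil3 intervals all span 0.

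Other genes that STAT6 is known to induce, chiefly in macrophages, were examined as a list. Of 24 listed, 19 were tested, with 4 higher and none lower in mdx_IL5Tg against IL5Tg, 4 higher and 3 lower in mdx_IL5Tg against mdx, and 6 higher and none lower in mdx against IL5Tg. Tgm2, a transglutaminase, was at 11621, 11828 and 10838 CPM in mdx_IL5Tg, 7077, 6675 and 7769 CPM in mdx, and 2558, 3476 and 3356 CPM in IL5Tg. Its 3 groups did not overlap, as held for 35.9% to 42.0% of all genes in a given pair. Tgm2 passed the test in all comparisons. Its log2 change was 1.87 in mdx_IL5Tg against IL5Tg, 0.67 in mdx_IL5Tg against mdx and 1.20 in mdx against IL5Tg. The edgeR adjusted p was 0.00054, 0.013 and 0.00064 in that order. Mrc1, the macrophage mannose receptor and 1 of the macrophage markers above, was at 11.9, 15.2 and 4.18 CPM in mdx_IL5Tg, 45.1, 28.4 and 26.3 CPM in mdx, and 1.82, 1.62 and 2.87 CPM in IL5Tg, highest in mdx without overlap. Egr2, a transcription factor, averaged 22.6 ± 2.60 CPM in mdx_IL5Tg, 32.2 ± 1.27 CPM in mdx and 7.59 ± 2.27 CPM in IL5Tg. Alox15 (2218 ± 328 CPM in mdx_IL5Tg and 845.5 ± 299 CPM in mdx), Cish (340.2 ± 39.2 and 194 ± 19.3 CPM) and Pdcd1lg2 (6.99 ± 1.01 and 2.82 ± 0.417 CPM; SD, n = 3 each) were higher in mdx_IL5Tg than in mdx. The median log2 change of the 19 was 0.84 in mdx_IL5Tg against IL5Tg, -0.54 in mdx_IL5Tg against mdx and 0.68 in mdx against IL5Tg. The count of 4 in mdx_IL5Tg against IL5Tg was 2 without S1, S7 or S8 and 7 without S3 or S5, and the 7 in mdx_IL5Tg against mdx were 4 without S1 or S4.

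The members fell into unlike patterns across the 9 libraries. Likeness was measured as the mean absolute difference of log2 CPM, each gene centred on its own mean, as a description over libraries that share groups and depth. Il4 and Il13 were the closest pair of members at 0.28, followed by Il13 with Il4ra at 0.34 and Il4 with Il4ra at 0.39. The mean absolute deviation from a gene's own mean was 0.60 for Il4, 0.73 for Il13, 0.43 for Il4ra and 0.35 for Il13ra1. It was 1.58 for Arg1, 1.28 for Retnla and 1.53 for Chil3, and distances can grow with these deviations. The most distant pair was Retnla with Chil3 at 2.39, and Arg1 was at 1.59 or more from every other member. Among 12814 other genes searched, those most like Il4 were Tagap (0.14), L1cam (0.14) and Sp140 (0.14), and those most like Il13 were Cd24a (0.17), Slc39a8 (0.17) and Adora2b (0.17). Il4ra was most like Atp6v0d1 (0.068), Kpna2 (0.073) and Cyp4f18 (0.078), and Il13ra1 most like Sec24d (0.084), Gem (0.11) and Ehd4 (0.13). For Retnla they were Tmem64 (0.22), Lypd6 (0.24) and Slc24a3 (0.29), of which Tmem64 averaged 696 CPM in mdx_IL5Tg, 65.0 CPM in mdx and 427 CPM in IL5Tg. Chil3 was most like Cd177 (0.32), Lcn2 (0.44) and Chil1 (0.49), where Cd177 and Lcn2 are neutrophil genes. Arg1 had no gene nearer than 0.60 (Vmn1r43), followed by Cxcl3 (0.65) and Myl1 (0.66).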

How the data were processed

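Values were expected counts per gene, estimated by RSEM and deposited by the authors as 1 table of 9 libraries; 6.03% of them were not whole and they were rounded here. Per the submitters' processing notes, cutadapt 2.10, STAR 2.5.3, RSEM 1.3.0, limma and the mm10 build were used; the sources used here do not give their roles, the annotation or the strand setting. Genes were matched by Ensembl ID to GENCODE M21 (54079 of 54146 rows), which gave positions and exon lengths. Columns carry S numbers and a group name, which set their groups.

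Genes passing edgeR's filterByExpr with a minimum count of 10 (15886) were fitted in R 4.3.3 with edgeR 4.0.16 (TMM scaling, robust quasi-likelihood, all 9 libraries in 1 fit), with Benjamini-Hochberg adjusted p-values over all of them, called under 0.05. CPM uses TMM library sizes. Totals of 26752780 to 58368283 counts limit Arg1 in IL5Tg most, at 4 to 22 counts. Alternatives were DESeq2 1.42.0, limma 3.58.1 voom (plain and with quality weights), scaling by RLE factors or by library totals, testing unfiltered genes or those with 50 counts in 3 libraries, fitting the compared groups alone, and leaving out libraries. Named genes are the members and up to 4 called genes per list and comparison with the smallest p, plus receptor partners, paralogs and the 3 genes most alike. The members and lists were chosen with earlier results of these data known. Promoter windows came from RefSeq (GRCm38.p6).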

Additional observations from a re-analysis of the deposited data

How the results depend on the processing

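In mdx_IL5Tg against IL5Tg the count of members called, 3, was 3 under all 8 alternative tools, scalings, filters and fits, and ranged from 0 to 3 when a single library was left out: 0 by edgeR without S1 (3 at an unadjusted p under 0.05) or S7 (4), 1 without S8 and 2 without S2. No other tool was run without those libraries. The count in mdx_IL5Tg against mdx was 4 without any single library, and that in mdx against IL5Tg was 4 or 5. Where called, Arg1 is part of both counts against IL5Tg, though it passed the filter only through the groups with the mdx background. Over all genes the calls were 1147 in mdx_IL5Tg against IL5Tg (110 without S1, 254 without S2, 256 without S7, 357 without S9, 4294 with voom quality weights), 3433 in mdx_IL5Tg against mdx (1521 without S1, 6929 with quality weights) and 3298 in mdx against IL5Tg (1961 without S9, 5498 with quality weights). Scaled by library totals alone, all genes had a median log2 change of -0.27 in mdx_IL5Tg against IL5Tg, -0.46 in mdx_IL5Tg against mdx and 0.12 in mdx against IL5Tg, and no member changed its call or direction. Directions turned in 9 cases, all of changes that were not called: Il4 in mdx_IL5Tg against IL5Tg (0.022 without S1; single leave-outs ran from -0.11 to 0.022), Arg1 in mdx_IL5Tg against mdx (0.088 without S3, 0.27 without S4; -0.60 to 0.27), Il13ra1 in mdx against IL5Tg (-0.050 without S4; -0.050 to 0.52), and Chil3 in mdx against IL5Tg (0.36 with voom, 2.57 with quality weights, 0.29 without S5, 1.58 without S7, 2.16 without S7 and S5 together; single leave-outs -1.09 to 1.58). The cause was not tested. No paired analysis was possible because the columns carry S numbers and not the labels' replicate numbers.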
